A study of Danio rerio with 52 samples.

Results

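Mantle cells form the outer rim of the neuromast, the sense organ of the zebrafish lateral line, and their transcripts are described here 3 h after copper had killed the hair cells. The cells carried mCherry and were sorted by flow cytometry. Larvae 4 days old had been given 5 µM copper sulfate for 1 h, and the sorted cells of 4 samples were set against mCherry+ mantle cells of 5 samples of untreated larvae. These 9 arrays are part of a series of 52 arrays, and all 19260 genes with a single gene symbol were tested. Other arrays of the series served as comparisons, namely mCherry+ mantle cells 1 h, 5 h and 11 h after the same treatment (4 arrays each) and mCherry-negative, non-fluorescent skin cells 3 h after copper (4 arrays) and without copper (6 arrays).

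The mCherry came from an alpl:mCherry transgene, carried by treated and untreated larvae alike, which marks mantle cells, and the lines of the series carry a GFP transgene as well (pou4f3:GFP in hair cells or the ET20 line in mantle cells). The submitters discarded a few untreated samples that did not cluster on the principal components. Each sample pooled about 50 larval skins, which were digested with trypsin, and 1 ng of total RNA was amplified before labelling. RNA integrity scores were above 8.0 in all samples. The sources used here do not give the clutch or sort of each replicate, so a p-value measures the spread between these samples, which may be technical.

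Hair cells of the lateral line are lost and replaced throughout the life of a fish. Their replacements come from the non-sensory cells around them: the inner support cells divide to make new hair cells, and the mantle cells at the rim are regarded as a slower reserve that rebuilds the organ after severe damage. Mantle cells border the surrounding epidermis, whose keratinocytes are the commonest cells of the skin, and they make secreted material, which passes through the endoplasmic reticulum (ER) and the Golgi apparatus.

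Values below are the deposited log2 values of single arrays, in the order of the replicate numbers, and differences are log2 differences, 3 h minus untreated, with the standard error of the linear model (limma). A gene is called higher or lower at an adjusted p below 0.05. On the deposited values 2878 genes were called at 3 h, 14.9% of those tested, with 1539 higher (7.99%) and 1339 lower (6.95%). A stricter count keeps only those genes whose direction and call held in 4 fits. The fits used the values as deposited, the values with equal array medians, quantile-normalized values, and equal array medians together with a term for an earlier adjustment of the arrays. It holds 360 genes (1.87%), 221 higher (1.15%) and 139 lower (0.722%), and 17 of the 360 were not called where the term was used without equal array medians. The fit with the term and equal array medians by itself called the same 360 genes, so the other fits removed none. Every gene written of below as having risen or fallen is in this stricter count unless another basis is named. Arrays of the groups did not overlap for 3945 genes (20.5%), with 2055 higher (10.7%) and 1890 lower (9.81%) at 3 h. The median of the 19260 differences was 0.03, and 0.02 with array medians equal.

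That earlier adjustment touches 3 of the 4 replicates, numbers 1 to 3, at 3 h and at 5 h. Across probe sets, the deviation of replicate 4 from its group mean at 3 h was the mirror image of that at 5 h (r = -1), so the arrays of these times are not free of each other, and replicate 4 takes part in the mirror. Because of this mirror, a term for the adjustment could not move the differences, and it changed none by more than 5e-05. It raised the median standard error to 0.35, against 0.25 without it. A further check took the 3 h level from replicate 4 alone, the lone array being assumed to vary like the other groups. Replicate 4 also took part in the calls, against the same untreated arrays, so agreement in sign was likely beforehand. All 221 higher and all 139 lower genes kept their sign in replicate 4, and 148 genes (0.768%) were called there too, 87 higher (0.452%) and 61 lower (0.317%). Of the 2878 genes called on the deposited values, 2868 had the same sign in replicate 4 and 10 the opposite sign.

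**Figure D1:**
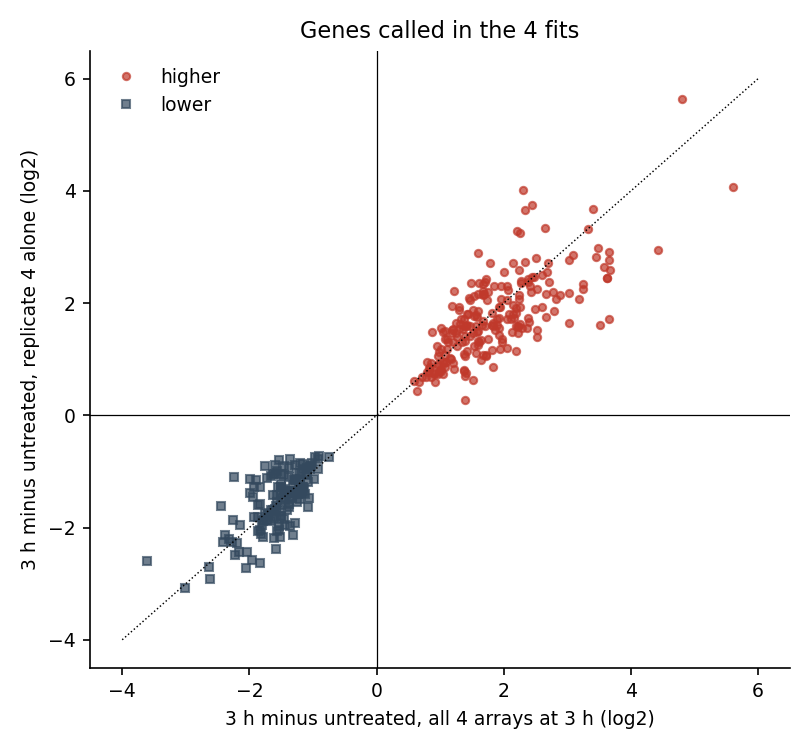
Each point is 1 of the 360 genes called in the 4 fits, with the log2 difference of 3 h minus untreated mantle cells from all 4 arrays at 3 h on the horizontal axis and from replicate 4 alone on the vertical axis. The 221 circles (higher) and 139 squares (lower) all lie on the same side of 0 on both axes, which share the untreated arrays and replicate 4 itself.

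Array means over all probe sets were 4.32 to 4.35 in mantle cells at 3 h and 4.27 to 4.29 in untreated mantle cells. The submitters imported the copper analysis apart from that of the untreated populations, which share the untreated arrays, so an effect of the import and one of the treatment cannot be told apart. For this reason mantle cells at 3 h were also set against those at 1 h, both treated, further on. The label of the sort was checked against marker lists, each summed up as the mean log2 value of its members per array. The neuromast support and mantle cell list lay at 6.57 to 6.96 at 3 h and at 6.85 to 7.24 in untreated mantle cells, both above non-fluorescent cells, at 5.57 to 5.73 3 h after copper and 5.43 to 5.77 without copper. The hair cell list stood at 4.12 to 4.22 in mantle cells at 3 h and 3.95 to 4.29 untreated, below the median of the tested genes on these arrays (4.64 to 4.74 and 4.67 to 4.71), while the sorted hair cell arrays of the series stood at 8.49.

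Lists of other cells that skin could hold had few calls beside the 14.9% over all genes, apart from keratinocytes, connective tissue and glia. Of the leukocyte list 0 of 27 members were called, and its level was 3.92 to 4.11 at 3 h and 3.62 to 4.37 untreated. None of 21 pigment cell genes was called. For muscle 1 of 34 was called higher, for neurons 1 of 23 lower, for blood and endothelium 1 of 25 lower, for ionocytes 1 of 19 higher, and for glia 2 higher and 1 lower of 16, none of these in the 4 fits. Connective tissue had 4 higher and 6 lower of 31, with 1 higher in the 4 fits.

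Among the genes with the largest increases, lgals1l1, which encodes a galectin, a sugar-binding protein, had values of 13.05, 11.57, 12.09 and 10.21 at 3 h, against 6.71, 6.31, 8.51, 3.81 and 5.31 in untreated mantle cells. All 4 treated arrays lay above every untreated array, which was a condition for the choice of the largest increases and decreases. Replicate 1 was highest and replicate 4 lowest at 3 h. The difference was 5.60 ± 0.88 (adjusted p = 3.1e-05). The collagen XVII gene col17a1a, whose product anchors basal epidermal cells to the basement membrane, had 11.88, 10.82, 10.82 and 9.73 at 3 h and 7.28, 7.16, 8.85, 5.28 and 7.09 in untreated cells, a difference of 3.68 ± 0.73 (adjusted p = 0.000598). Its groups did not overlap, although the gap between replicate 4 at 3 h and untreated replicate 3 was small beside the spread. The gene of a cyclooxygenase that makes prostaglandins in wounds and inflammation, ptgs2a, had 10.30, 9.44, 9.75 and 8.64 at 3 h and 6.54, 6.47, 6.66, 4.54 and 5.14 untreated. Here the lowest treated array stood well clear of the highest untreated one, and the difference was 3.66 ± 0.58 (adjusted p = 4.29e-05).

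**Figure D2:**
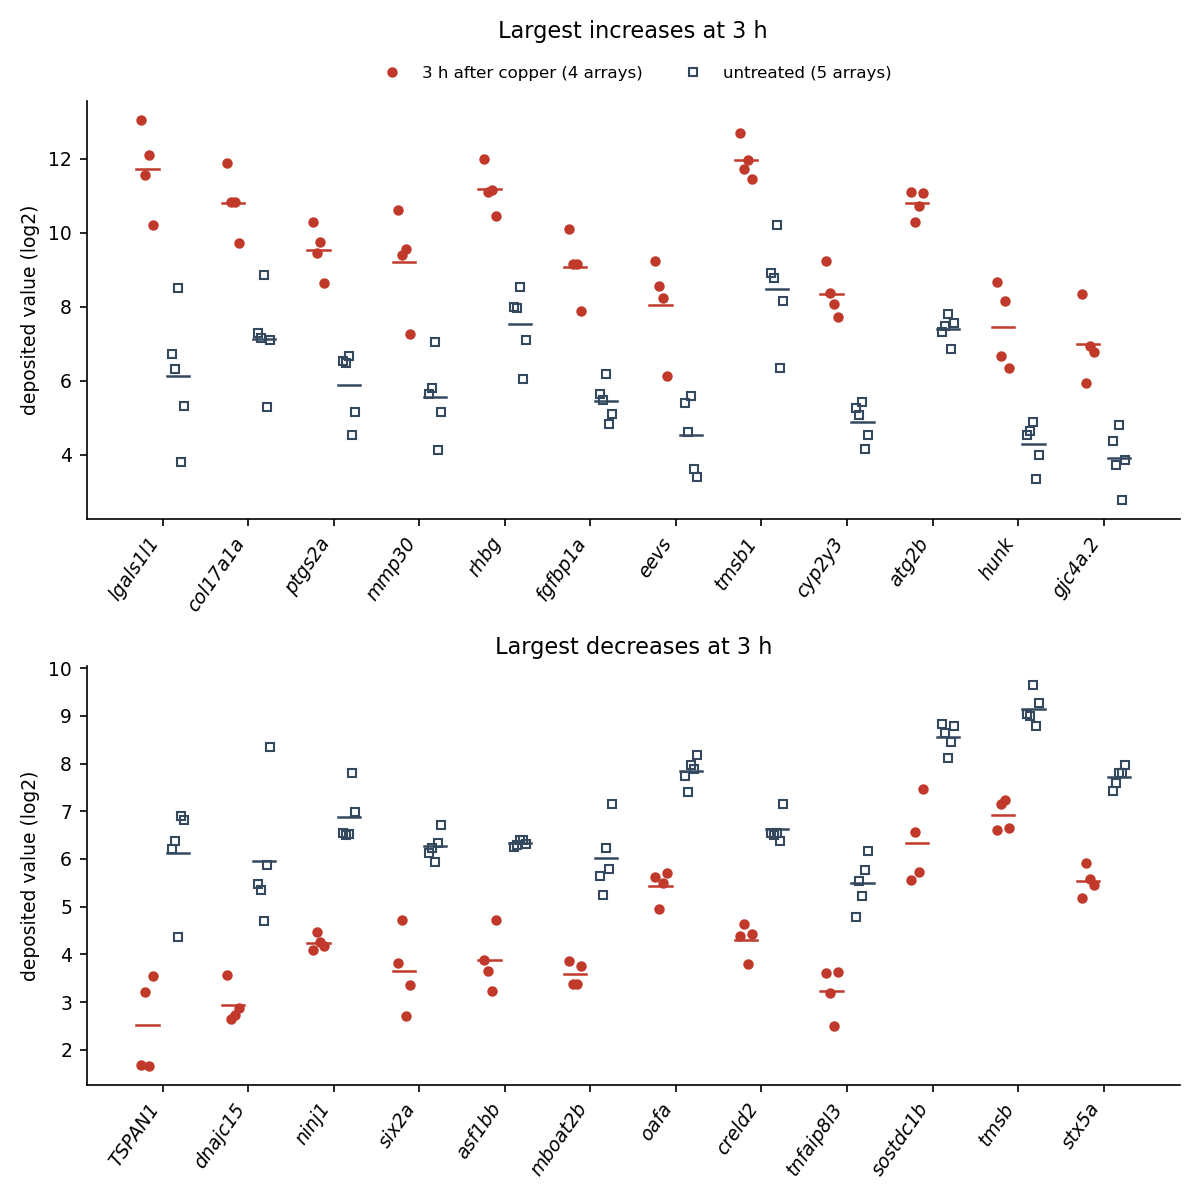
The 12 genes with the largest increases (upper panel) and the 12 with the largest decreases (lower panel) among genes called in the 4 fits whose arrays do not overlap. The vertical axis is the deposited log2 value, filled circles are the 4 arrays 3 h after copper, open squares the 5 untreated arrays, and short lines are group means. For lgals1l1 the treated arrays lie between 10.21 and 13.05 and the untreated ones between 3.81 and 8.51, while for TSPAN1 they lie between 1.66 and 3.54 and between 4.37 and 6.90.

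Further genes of this set deal with matrix, ion transport and small molecules. The matrix metalloproteinase gene mmp30 differed by 3.66 ± 0.73 (adjusted p = 0.000608), with treated replicate 4, at 7.27, just above untreated replicate 3, at 7.04. The ammonium transporter gene rhbg had 11.99, 11.10, 11.16 and 10.44 at 3 h and 7.98, 7.96, 8.54, 6.03 and 7.11 untreated, without overlap (3.65 ± 0.66, adjusted p = 0.000201). Also higher were fgfbp1a, which encodes a carrier that frees Fgf ligands from the matrix (3.63 ± 0.58), eevs, an enzyme of the sunscreen compound gadusol in fish (3.52 ± 0.69, but 1.61 from replicate 4 alone, adjusted p = 0.561), and the cytochrome P450 gene cyp2y3 (3.46 ± 0.52). A thymosin that binds actin monomers, encoded by tmsb1, differed by 3.48 ± 0.57, the kinase gene hunk by 3.18 ± 0.57 and the connexin gene gjc4a.2 by 3.09 ± 0.59. The lipid transfer gene of autophagy atg2b had 11.11, 10.29, 10.73 and 11.08 at 3 h and 7.30, 7.48, 7.79, 6.85 and 7.56 untreated. Its treated arrays lay close together and far above the untreated ones (3.41 ± 0.56, adjusted p = 6.03e-05). Of these 12 genes, atg2b alone was called with replicate 4 alone, at 3.68 (adjusted p = 0.0304).

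Keratinocyte genes were often higher in the sorted mantle cell samples at 3 h. Of the 34 measured members of the keratinocyte and epidermis list, 20 were higher and 0 lower on the deposited values, and 6 higher and 0 lower in the 4 fits, and the median difference of the list was 1.74 against 0.03 for all genes. The shares over all genes were 7.99% higher and 6.95% lower, with 1.87% in the 4 fits. The 6 included tp63, the master regulator of basal keratinocytes, which had 9.98, 9.37, 9.01 and 8.60 at 3 h and 6.89, 6.73, 7.79, 5.47 and 7.41 in untreated cells. No array overlapped, and the difference was 2.38 ± 0.46 (adjusted p = 0.0004). The epithelial cadherin gene cdh1 had 11.11, 10.41, 10.04 and 10.52 at 3 h and 8.49, 8.34, 8.05, 7.75 and 8.09 untreated, with both groups narrow and apart (2.38 ± 0.46, adjusted p = 0.000457). The annexin gene anxa1a (1.98 ± 0.35) and the keratin gene krt4 (1.94 ± 0.40) also rose, although krt4 was not called with the adjustment term on the deposited values (adjusted p = 0.056) or from replicate 4 alone (1.19, adjusted p = 0.447). As a whole the keratinocyte and epidermis list stood at 8.97, 8.21, 8.14 and 7.62 at 3 h and at 6.77, 6.74, 7.09, 6.05 and 6.58 in untreated mantle cells.

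That list separated the groups, with replicate 1 highest and replicate 4 lowest at 3 h. Among the untreated arrays replicate 3 was highest and replicate 4 lowest. Of the 12 largest increases, eevs, atg2b and gjc4a.2 did not have these extremes. The list shared them with the rest, namely lgals1l1, col17a1a, ptgs2a, mmp30, rhbg, fgfbp1a, tmsb1, cyp2y3 and hunk. From replicate 4 alone its median was 1.01, with 31 of 34 members positive and 0 called. In non-fluorescent cells, which are rich in keratinocytes, the list stood at 8.72 to 9.26 at 3 h and 8.32 to 9.16 untreated. In bulk samples more cells of a type and more of its RNA per cell cannot be told apart, and the part that keratinocytes have in the higher genes was not tested. For the whole keratinocyte list the mean at 3 h was 8.24 in mantle cells and 9.01 in non-fluorescent cells. The genes compared next were chosen for high values in these same mantle arrays, which favours higher mantle means. The mean at 3 h in mantle cells was above that of non-fluorescent cells at 3 h for 10 of the 12 largest increases and below it for 2. For the 6 keratinocyte genes it was above for 4 and below for 2. Below it were hunk (7.46 ± 1.13 against 9.10 ± 0.58, SD, n = 4 each), eevs (8.04 ± 1.34 against 9.05 ± 0.77) and, on the keratinocyte list, anxa1a (9.06 ± 0.59 against 9.38 ± 0.29). For cdh1 it was 10.52 ± 0.45 (SD, n = 4) in mantle cells at 3 h, against 9.17 ± 0.37 (n = 4) in non-fluorescent cells at 3 h and 9.35 ± 0.67 (n = 6) in untreated ones. For col17a1a the values were 10.81 ± 0.88, 9.06 ± 0.90 and 6.71 ± 0.31, and for rhbg 11.17 ± 0.63, 9.92 ± 0.38 and 10.53 ± 0.52, in the same order and with the same n.

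**Figure D3:**
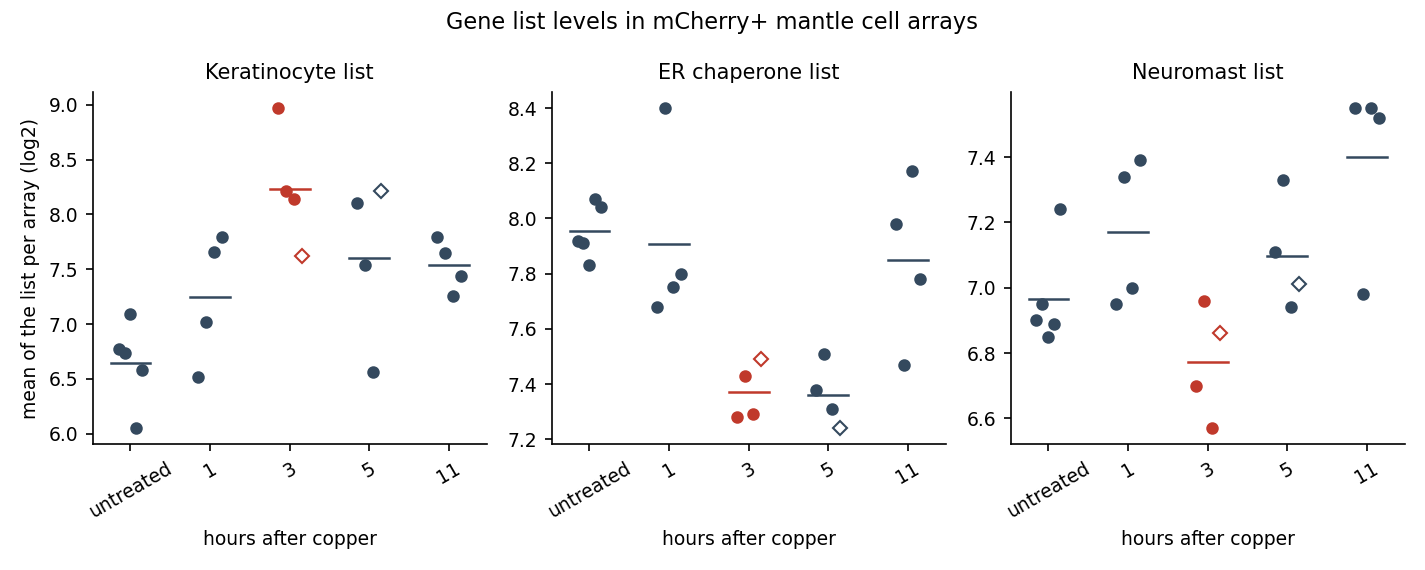
Mean log2 value of the members of 3 gene lists in each mCherry+ mantle cell array, untreated and 1, 3, 5 and 11 h after copper, each panel with its own vertical scale. Points are arrays, the 3 h arrays are in red, open diamonds are replicate 4 at 3 h and 5 h, and lines are group means. At 3 h the keratinocyte list lies at 7.62 to 8.97 and the ER chaperone list at 7.28 to 7.49, against 6.05 to 7.09 and 7.83 to 8.07 in untreated cells.

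Some genes of cell adhesion and of the actin skeleton were among the higher ones. Of 50 integrins and their ligands, 13 were higher and 4 lower, with 5 higher and 0 lower in the 4 fits, and the list median, 0.07, was near that of all genes. Beside both lists of this paragraph stand 7.99% higher, 6.95% lower and 1.87% in the 4 fits over all genes. The integrin genes itgb3a and itga2.2, receptors for extracellular matrix, differed by 3.03 ± 0.53 and 2.61 ± 0.40. Fibronectin, the product of fn1b and a matrix ligand of integrins, had 10.76, 9.38, 9.44 and 9.55 at 3 h and 7.48, 7.31, 8.00, 6.13 and 7.82 untreated. Its treated arrays were all higher, replicate 1 most (2.43 ± 0.38, adjusted p = 3.36e-05). In the list of 65 genes of actin and cell migration, 16 were higher and 2 lower, with 9 and 1 in the 4 fits and a median of 0.27. Examples were the focal adhesion adaptor pxna (2.25 ± 0.41), the non-muscle myosin gene myh9a (2.25 ± 0.42) and the cofilin gene cfl1l (2.2 ± 0.42). From replicate 4 alone the median was 0.01 for the integrin list and 0.15 for the actin list, against 0.01 for all genes. Mean levels were higher at 3 h in non-fluorescent cells too. There the integrin list stood at 6.72 at 3 h and 5.96 untreated, against 6.79 and 6.47 in mantle cells. The actin list stood at 7.82 and 7.62 there, against 7.98 and 7.58 in mantle cells. The keratinocyte list was also higher at 3 h, as given above, and its relation to these 2 lists was not tested. Its highest and lowest arrays in each group were also those of itgb3a, itga2.2, myh9a and cfl1l, but not of fn1b and pxna.

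The thymosin genes went opposite ways. While tmsb1 had 12.69, 11.71, 11.96 and 11.46 at 3 h and 8.90, 8.78, 10.198, 6.34 and 8.16 untreated, its relative tmsb had 6.6, 7.16, 7.24 and 6.65 at 3 h and 9.04, 8.99, 9.64, 8.79 and 9.26 untreated. All treated arrays were above the untreated ones for tmsb1 and below them for tmsb. The tmsb difference was -2.23 ± 0.39 (adjusted p = 0.000113), and -2.49 from replicate 4 alone (adjusted p = 0.029).

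The largest decrease among named genes was in TSPAN1, a tetraspanin gene on the neuromast list. It had 1.68, 3.22, 1.66 and 3.54 at 3 h and 6.20, 6.37, 4.37, 6.90 and 6.82 in untreated mantle cells. The groups did not overlap, as the choice of the largest decreases required. Untreated replicate 3 lay far below the other untreated arrays, and the treated arrays were all under 3.78, the lower quartile of gene means. The difference was -3.61 ± 0.42 (adjusted p = 3.64e-07). The mean at 3 h, 2.52 ± 0.99 (SD, n = 4), was close to that of non-fluorescent cells, 2.45 ± 0.08 at 3 h (n = 4) and 2.60 ± 0.76 untreated (n = 6). Over the mantle time course TSPAN1 averaged 6.13 untreated, 5.72 at 1 h, 2.52 at 3 h, 4.06 at 5 h and 5.39 at 11 h. The neuromast list as a whole had 2 higher and 5 lower of 33, beside 7.99% and 6.95% over all genes. In the 4 fits, which called 1.87% of all genes, TSPAN1 was its only call. The list median was -0.2, and 0.04 from replicate 4 alone, against 0.03 and 0.01 for all genes.

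Regulators and secreted proteins were among the other largest decreases, which were likewise chosen from genes whose arrays did not overlap. The homeobox gene six2a had 3.81, 4.72, 2.71 and 3.36 at 3 h and 6.13, 6.23, 5.93, 6.34 and 6.71 untreated, without overlap (-2.62 ± 0.39, adjusted p = 1.38e-05). The histone chaperone gene asf1bb had 3.89, 3.66, 3.24 and 4.72 at 3 h, and its 5 untreated arrays lay within a narrow band, at 6.26, 6.29, 6.39, 6.39 and 6.31. Every treated array was well below that band (-2.45 ± 0.30, adjusted p = 7.99e-07). The secreted antagonist of Bmp and Wnt ligands sostdc1b had 5.55, 6.56, 5.73 and 7.47 at 3 h and 8.83, 8.65, 8.11, 8.45 and 8.79 untreated. Replicate 4 was nearest to the untreated arrays (-2.24 ± 0.38, adjusted p = 0.000108), and from it alone the difference was -1.10 (adjusted p = 0.423).

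Also lower were dnajc15, a mitochondrial co-chaperone (-3.01 ± 0.55), ninj1, whose product ruptures the plasma membrane of dying cells (-2.63 ± 0.45), mboat2b, a lysophospholipid acyltransferase (-2.42 ± 0.35), and tnfaip8l3, a carrier of phosphoinositides (-2.26 ± 0.38). The gene oafa differed by -2.39 ± 0.41. For dnajc15 untreated replicate 5, at 8.35, stood above the other untreated arrays, at 4.71 to 5.87, and the treated arrays lay at 2.64 to 3.56. The gene alpl, for which the reporter is named, had 4.64, 5.60, 5.30 and 5.65 at 3 h and 6.51, 6.51, 6.32, 6.97 and 7.08 untreated. Its arrays did not overlap and it was called on the deposited values (-1.38 ± 0.30, adjusted p = 0.00167), but not with the adjustment term (adjusted p = 0.0785). In non-fluorescent cells alpl was at 7.54 ± 0.35 at 3 h (SD, n = 4) and 6.31 ± 0.18 untreated (n = 6).

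Among genes of ER chaperones and of the unfolded protein response, 8 of 52 fell in the 4 fits and none rose. Chaperones fold newly made secreted and membrane proteins, and many of their genes are classic targets of the unfolded protein response. Of 52 measured members, 0 were higher and 16 lower, with 8 lower in the 4 fits, and 46 of the 52 differences were negative. Over all genes 6.95% were lower, and 0.722% were lower in the 4 fits. The list median was -0.51 against 0.03 for all genes, and -0.53 from replicate 4 alone, against 0.01 for all genes there. By array the list of ER chaperones and unfolded protein response stood at 7.28, 7.43, 7.29 and 7.49 at 3 h and at 7.92, 7.91, 7.83, 8.07 and 8.04 in untreated cells, with no overlap. In the mantle time course it lay at 7.83 to 8.07 untreated, 7.68 to 8.40 at 1 h, 7.28 to 7.49 at 3 h, 7.24 to 7.51 at 5 h and 7.47 to 8.17 at 11 h.

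The ER protein gene creld2 had 4.38, 4.64, 3.79 and 4.43 at 3 h and 6.55, 6.51, 6.55, 6.38 and 7.15 untreated, and the groups were far apart (-2.32 ± 0.27, adjusted p = 3.64e-07). From replicate 4 alone it fell by 2.2 (adjusted p = 0.0071). The chaperone gene hsp90b1 (Grp94) had 6.69, 7.23, 6.91 and 7.80 at 3 h and 8.98, 8.91, 9.14, 9.25 and 9.10 untreated. Replicate 4 was the highest treated array and still below every untreated one (-1.92 ± 0.27, adjusted p = 6.75e-06). For hspa5 (BiP), the central chaperone of the ER, the arrays read 8.75, 8.72, 8.43 and 9.38 at 3 h and 10.27, 10.195, 10.39, 10.49 and 10.56 untreated, again apart (-1.56 ± 0.27, adjusted p = 0.000125). The BiP co-chaperone gene dnajb9a differed by -1.99 ± 0.38. The collagen chaperone gene serpinh1b, which is counted on the heat shock list and not on this one, differed by -1.83 ± 0.32. From replicate 4 alone hsp90b1, hspa5, dnajb9a and serpinh1b were not called, at -1.28, -1.0, -1.39 and -1.27.

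**Figure D4:**
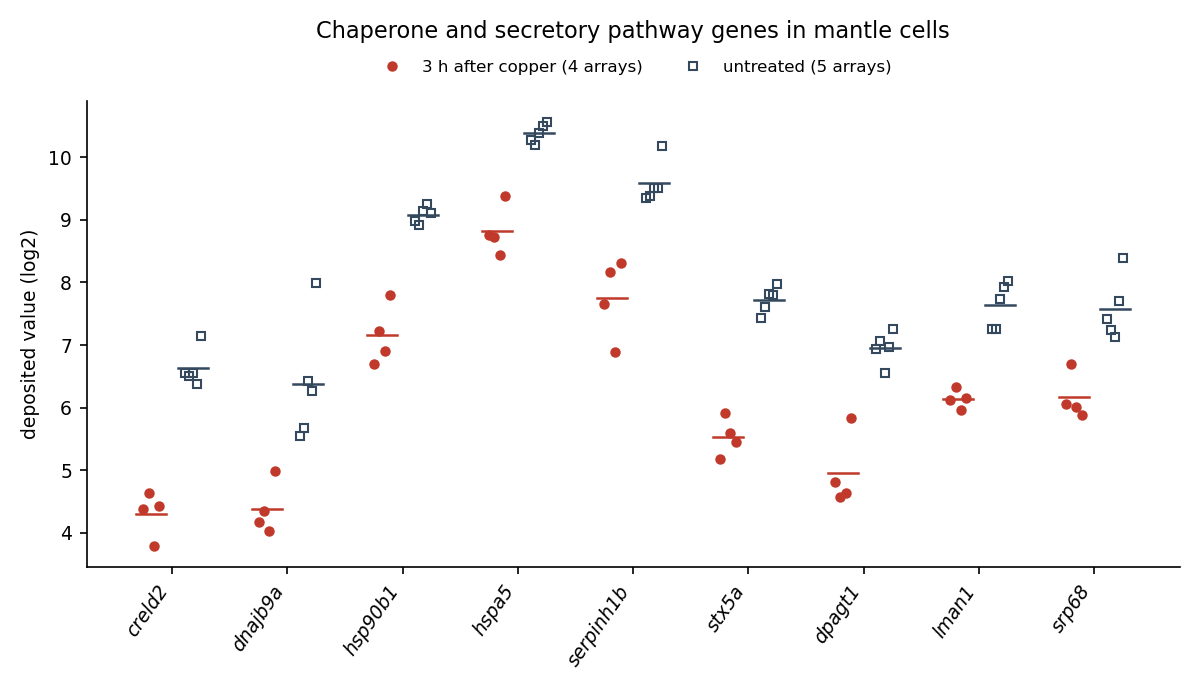
Chaperone genes (creld2 to serpinh1b) and genes of protein entry into the ER, glycosylation and vesicle traffic (stx5a to srp68), as deposited log2 values on the vertical axis. Filled circles are the 4 arrays 3 h after copper, open squares the 5 untreated arrays, and lines group means. For each of the 9 genes every treated array lies below every untreated one, as for 9.81% of all genes tested. The 9 genes were chosen among those called lower in these same arrays, which favours such separation.

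The keratinocyte list was higher in the same arrays. Non-fluorescent cells, whose keratinocyte list is given above, had a lower ER list than untreated mantle cells. It stood at 7.03 to 7.31 at 3 h and 7.36 to 7.49 untreated, so it was lower at 3 h in these cells too. For the whole ER list the mean was 7.37 in mantle cells at 3 h, against 7.16 in non-fluorescent cells at 3 h and 7.43 untreated. Of the 8 members lower in the 4 fits, 5 had a mantle mean at 3 h below both non-fluorescent means and 3 did not. These 8 were chosen for low values in the same mantle arrays, which favours lower mantle means. Mean creld2 was 4.31 ± 0.36 (SD, n = 4) in mantle cells at 3 h, against 5.44 ± 0.43 (n = 4) and 5.77 ± 0.29 (n = 6) in non-fluorescent cells at 3 h and untreated. For hsp90b1 the same means were 7.16 ± 0.48, 8.05 ± 0.25 and 8.42 ± 0.28. Mean hspa5 in mantle cells at 3 h, 8.82 ± 0.40, lay between the means of non-fluorescent cells, 8.65 ± 0.39 at 3 h and 9.84 ± 0.33 untreated.

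Some genes of protein entry into the ER, of glycosylation and of traffic to the Golgi were lower as well. Of 68 genes of glycosylation and secretory traffic, 1 was higher and 15 lower, with 1 and 4 in the 4 fits and a median of -0.28. All genes tested gave 7.99% higher and 6.95% lower, and 1.87% in the 4 fits. Syntaxin 5, encoded by stx5a, fuses ER vesicles with the Golgi, and the gene had 5.18, 5.91, 5.59 and 5.45 at 3 h and 7.43, 7.60, 7.81, 7.80 and 7.97 untreated. Both groups were narrow and lay apart (-2.19 ± 0.26, adjusted p = 3.64e-07), and replicate 4 alone gave -2.27 (adjusted p = 0.000797). The gene dpagt1, for the enzyme that starts the N-glycan precursor, had 4.81, 4.58, 4.64 and 5.83 at 3 h and 6.93, 7.07, 6.55, 6.97 and 7.26 untreated, with replicate 4 highest among the treated (-1.99 ± 0.34, adjusted p = 9.35e-05). The cargo receptor gene lman1 fell by 1.49 and srp68, a subunit of the signal recognition particle, by 1.41. Mean stx5a at 3 h in mantle cells, 5.53 ± 0.30 (SD, n = 4), was below non-fluorescent cells at 3 h, 7.03 ± 0.73 (n = 4), and untreated, 7.07 ± 0.21 (n = 6).

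**Figure D5:**
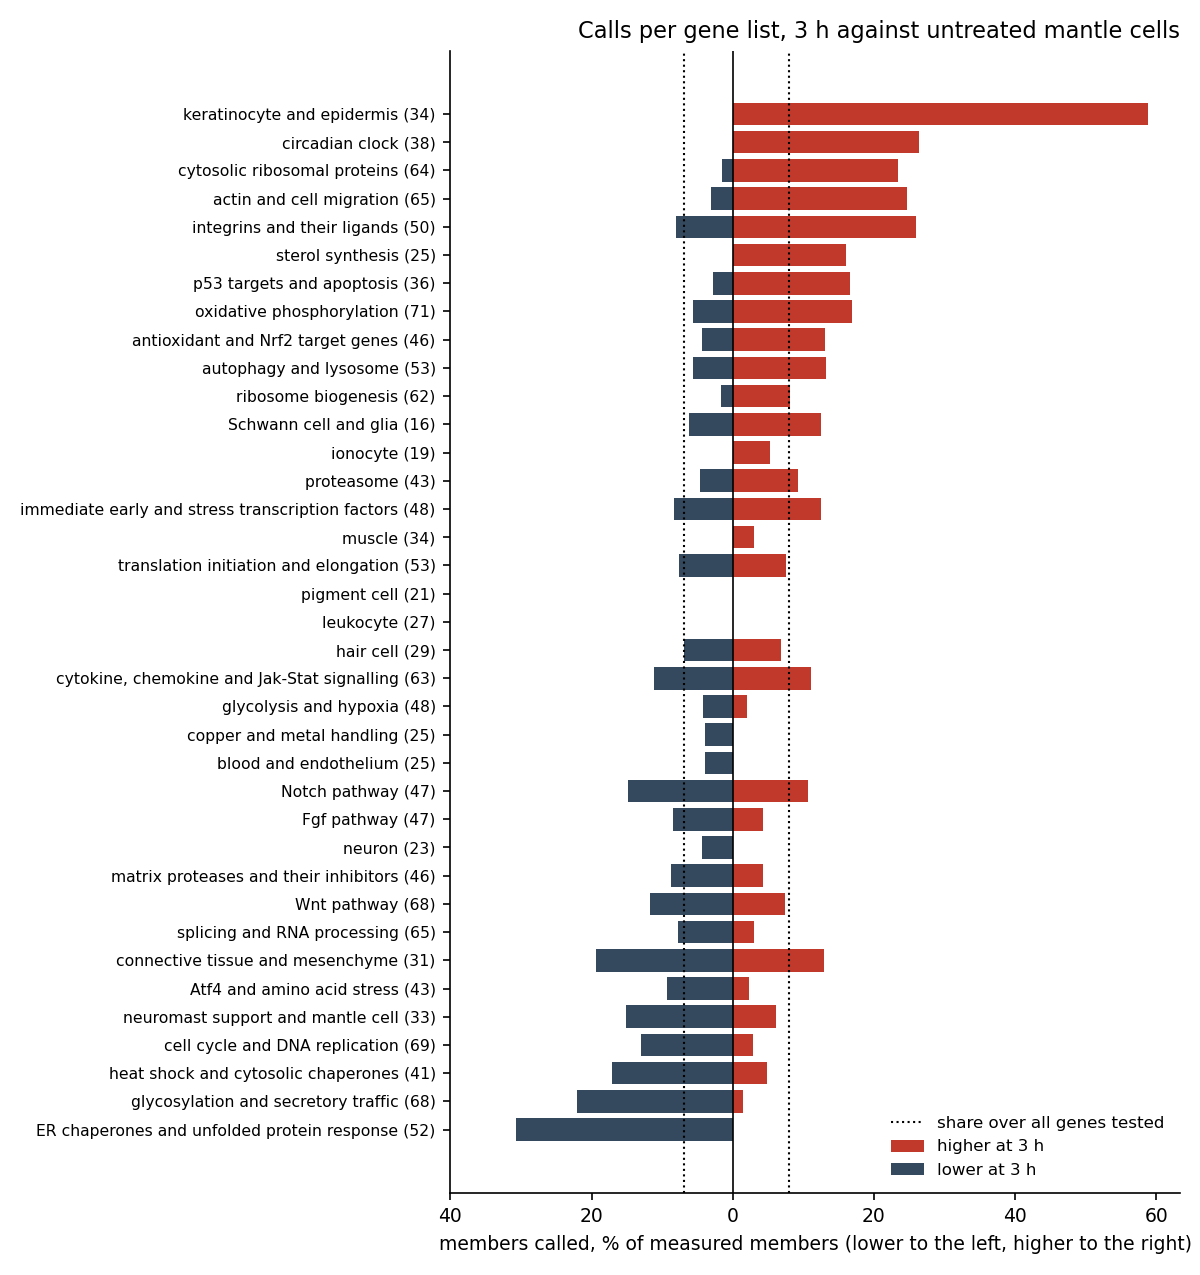
Share of the measured members of each gene list called on the deposited values, higher at 3 h to the right and lower to the left, with the number measured in brackets and dotted lines at the share over all genes tested (7.99% higher, 6.95% lower). The keratinocyte list, 20 of 34 higher, and the ER chaperone list, 16 of 52 lower, lie at the ends.

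In the other stress lists single genes were called in the 4 fits, beside 1.87% of all genes tested. On the deposited values 7.99% of all genes were higher and 6.95% lower. Of 48 immediate early and stress transcription factors, 6 were higher and 4 lower, with 1 in the 4 fits. It was klf2a, a Krüppel-like factor induced by flow and stress, with 7.98, 7.93, 7.59 and 8.59 at 3 h and 5.87, 6.11, 6.08, 5.17 and 6.13 untreated, clearly separated (2.15 ± 0.36, adjusted p = 8.33e-05). The early genes fosab (-0.15 ± 0.22) and atf3 (-0.36 ± 0.34) were not called. The list of copper and metal handling had 0 higher and 1 lower of 25, none in the 4 fits, and the heme oxygenase gene hmox1a was not called (0.50 ± 0.42). The list of heat shock and cytosolic chaperones had 2 higher and 7 lower of 41. On it ptges3b, an Hsp90 co-chaperone, rose (1.71 ± 0.33), and serpinh1b, the collagen chaperone gene given above beside the ER genes, fell.

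Of 46 antioxidant and Nrf2 target genes, 6 were higher and 2 lower, with 2 and 1 in the 4 fits. The list median was 0.05, against 0.03 for all genes. Shares over all genes, to set beside each list of this paragraph, were 7.99% higher, 6.95% lower and 1.87% in the 4 fits. The autophagy adaptor sqstm1 (p62), with 9.62, 9.32, 9.64 and 9.25 at 3 h and 7.74, 7.57, 7.69, 7.64 and 7.52 untreated, had narrow groups that lay apart (1.82 ± 0.23, adjusted p = 1.27e-06). Sulfiredoxin, srxn1, which restores oxidized peroxiredoxins, had 5.04, 4.83, 4.90 and 4.11 at 3 h and 6.65, 6.59, 6.04, 6.77 and 7.36 untreated. Unlike sqstm1 it was lower (-1.96 ± 0.26, adjusted p = 1.79e-06), and both genes were called with replicate 4 alone, srxn1 at -2.57 (adjusted p = 0.000797) and sqstm1 at 1.61 (adjusted p = 0.0297). The glutathione peroxidase gene gpx4b rose by 1.05 ± 0.22, but was not called with the adjustment term on the deposited values (adjusted p = 0.058) or from replicate 4 alone (0.73, adjusted p = 0.304). The Atf4 and amino acid stress list had 1 higher and 4 lower of 43, among them aldh1l2 (-1.84 ± 0.34) and the tRNA synthetase gene wars1 (-1.17 ± 0.21) lower and eif4ebp3l, a repressor of cap-dependent translation, higher (1.36 ± 0.23). For p53 targets and apoptosis it was 6 higher and 1 lower of 36, none in the 4 fits.

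Signalling pathways of hair cell regeneration changed in single genes. The shares over all genes were 7.99% higher and 6.95% lower, with 1.87% called in the 4 fits. In the Wnt list 5 of 68 were higher and 8 lower, with 1 and 1 in the 4 fits. The ligand gene wnt3a rose (1.96 ± 0.40, adjusted p = 0.000788, but 0.0549 with the adjustment term on the deposited values), and axin1, a scaffold of the complex that destroys beta-catenin, had 6.92, 6.41, 6.59 and 6.25 at 3 h and 7.63, 7.79, 7.84, 7.53 and 8.16 untreated. No array overlapped (-1.25 ± 0.20, adjusted p = 4.18e-05). The related ligand gene wnt3 was called on the deposited values (0.97 ± 0.30, adjusted p = 0.0243) but not with the adjustment term (adjusted p = 0.251). The Wnt target genes lef1 (-0.19 ± 0.23) and axin2 (-0.50 ± 0.24) were not called. In the Fgf list 2 of 47 were higher and 4 lower. The ligand gene fgf3 had 4.30, 4.16, 4.86 and 4.51 at 3 h and 6.26, 6.17, 6.79, 5.74 and 6.68 untreated, far apart (-1.87 ± 0.30, adjusted p = 5.29e-05), opposite in direction to fgfbp1a, and the receptor gene fgfr1a was not called (-0.57 ± 0.20, adjusted p = 0.0531).

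Beside 7.99% higher and 6.95% lower over all genes, Notch pathway genes were higher in 5 and lower in 7 of 47. In the 4 fits 1 was higher. It was DLK1, which encodes an atypical Notch ligand, with 6.87, 6.44, 7.07 and 7.73 at 3 h and 5.33, 5.35, 5.30, 5.34 and 5.18 untreated. The untreated arrays were nearly alike and all below the treated ones (1.72 ± 0.26, adjusted p = 2.06e-05). The receptor gene notch3 (-0.38 ± 0.21), the ligand genes dla (-0.15 ± 0.21) and dld (-0.37 ± 0.24) and the target gene her4.1 (-0.86 ± 0.32, adjusted p = 0.06) were not called. The Notch-modifying glycosyltransferase gene lfng was lower on the deposited values (-1.26 ± 0.28, adjusted p = 0.0015), with 5.95, 6.34, 6.05 and 7.28 at 3 h and 7.96, 7.28, 7.62, 7.90 and 7.56 untreated, but not with the adjustment term (adjusted p = 0.0748), and replicate 4 met the lowest untreated array.

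On the deposited values genes of hair cell identity and of division were called about as often as all genes (14.9%). The hair cell transcription factor genes atoh1a (0.62 ± 0.19, adjusted p = 0.0211) and pou4f3 (0.42 ± 0.16, adjusted p = 0.0807) were not called in the 4 fits, and atoh1a values were 5.27, 5.10, 5.21 and 4.78 at 3 h against 4.1, 4.63, 4.84, 4.22 and 4.55 untreated, with overlap through replicate 4. The hair cell list of 29 genes had 2 higher and 2 lower, and in the 4 fits lhfpl5b, a part of the mechanotransduction channel complex, was higher (1.43 ± 0.28). The support cell factor sox2 was not called (-0.37 ± 0.34). Cell cycle and DNA replication genes were higher in 2 and lower in 9 of 69 with a median of -0.17. Over all genes 7.99% were higher and 6.95% lower. Of this list e2f3, a driver of S phase entry, fell (-1.52 ± 0.27), while the replication clamp gene pcna was not called (-0.50 ± 0.26). Cytokine, chemokine and Jak-Stat genes had 7 higher and 7 lower of 63, with ptgs2a and the transcription factor gene stat5b (1.29 ± 0.22) higher in the 4 fits and stat3 not called (0.17 ± 0.26). Matrix proteases and their inhibitors had 2 higher and 4 lower of 46. The wound protease gene mmp9, at 7.95, 3.28, 3.98 and 4.27 at 3 h and 3.96, 3.65, 5.22, 4.59 and 6.50 untreated, was not called (0.09 ± 0.77), and only replicate 1 of the treated arrays was high.

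Housekeeping lists moved by small amounts, and their counts stand beside 7.99% higher and 6.95% lower over all genes. Cytosolic ribosomal proteins had 15 higher and 1 lower of 64, with 53 of 64 positive and a median of 0.17, and 0 in the 4 fits. The list lay at 10.34 to 10.41 at 3 h and 10.11 to 10.21 in untreated cells, a narrow separation. The translation elongation factor gene eef1b2 had 11.96, 12.14, 12 and 12.14 at 3 h and 11.08, 11.08, 11.10, 11.15 and 11.04 untreated. Both groups were very tight (0.97 ± 0.13, adjusted p = 3.24e-06). Its list of translation initiation and elongation had 4 higher and 4 lower of 53.

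Oxidative phosphorylation genes split, with 12 higher and 4 lower of 71 and 3 and 1 in the 4 fits. Among all genes tested 7.99% were higher and 6.95% lower, the shares to set beside each list of this paragraph. Complex I subunits went both ways: ndufa6 (1.54 ± 0.24) and ndufa9a (1.15 ± 0.21) rose and ndufs8a fell (-1.53 ± 0.26), and the complex IV gene cox6a1 rose (1.19 ± 0.22). Of these, ndufa6, cox6a1 and ndufs8a were called with replicate 4 alone, at 2.13, 1.95 and -1.97. The proteasome list had 4 higher and 2 lower of 43, with psmd1 lower in the 4 fits (-1.08 ± 0.22, adjusted p = 0.0548 with the adjustment term on the deposited values). Sterol synthesis had 4 higher and 0 lower of 25, autophagy and lysosome 7 higher and 3 lower of 53, ribosome biogenesis 5 higher and 1 lower of 62, glycolysis and hypoxia 1 higher and 2 lower of 48, and splicing 2 higher and 5 lower of 65.

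Circadian clock genes were higher in 10 and lower in 0 of 38, beside 7.99% and 6.95% over all genes, with a median of 0.36. Beside 1.87% of all genes, 1 was called in the 4 fits. That was clocka, a core activator of the clock, with 7.36, 7.93, 7.71 and 7.99 at 3 h and 6.33, 6.14, 6.39, 6.14 and 5.95 untreated, well apart (1.56 ± 0.26, adjusted p = 9.53e-05). The list stood at 6.83 to 7.25 at 3 h and 6.37 to 6.74 untreated, and at 6.35 to 6.91 at 1 h, 6.23 to 6.93 at 5 h and 6.35 to 6.90 at 11 h. Such levels were not particular to mantle cells 3 h after copper. In untreated mantle cells of the series with both mCherry and GFP it stood at 7.24 to 7.46. Non-fluorescent cells had 6.87 to 7.39 at 3 h and 6.66 to 7.10 untreated. The hour of day of each collection is not given in the sources used here, so clock time and treatment cannot be told apart.

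Mantle cells at 3 h were next set against mantle cells at 1 h, which are also treated arrays. The difference itself holds no untreated array, although untreated arrays shared in the estimate of the spread. The earlier adjustment touches arrays at 3 h and none at 1 h, so its effect and that of time cannot be told apart. On the deposited values 2645 genes were called (13.7%), 998 higher (5.18%) and 1647 lower (8.55%), and 373 in the 4 fits (1.94%), 141 higher (0.732%) and 232 lower (1.2%). A fit of the 3 h and 1 h arrays alone called 1842. After quantile normalization 50.5% of the calls were higher, against 37.7% on the deposited values. ER chaperones were lower in 13 and higher in 0 of 52 (7 lower in the 4 fits, median -0.43), and glycosylation and secretory traffic genes lower in 25 and higher in 2 of 68 (7 lower in the 4 fits, median -0.41), beside a median of -0.01 for all genes. Keratinocyte genes were higher in 11 of 34, with 0 in the 4 fits.

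For stx5a the 1 h arrays were at 7.77, 7.97, 8.30 and 8.04, all above the 3 h arrays given above, a difference of -2.49 ± 0.27 (adjusted p = 7.11e-08). For TSPAN1 they were at 4.70, 6.14, 6.18 and 5.85, also without overlap (-3.20 ± 0.44, adjusted p = 3.77e-06). The neuromast gene negaly6 had 4.95, 6.20, 5.84 and 6.54 at 3 h against 8.64, 9.28, 8.43 and 8.76 at 1 h, and gsg1l had 6.24, 7.31, 6.70 and 7.92 at 3 h against 9.49 to 10.69 at 1 h. Both were lower in every 3 h array, by -2.89 ± 0.50 and -2.93 ± 0.38. The largest decreases and increases from 1 h, TSPAN1 among them, were named only where the arrays did not overlap. Other large decreases in the 4 fits were in sostdc1b (-3.1 ± 0.41), the leptin gene lepb (-2.87 ± 0.51) and phf12a (-2.64 ± 0.51).

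Genes that rose between 1 h and 3 h included the lysosomal nuclease gene dnase2, with 7.64, 6.67, 7.56 and 7.12 at 3 h against 4.24, 4.09, 4.26 and 4.03 at 1 h. The 1 h arrays were tight and far below (3.1 ± 0.40, adjusted p = 1.37e-06). The selenoprotein gene selenoe had 5.48, 5.80, 6.51 and 7.68 at 3 h, 3.41, 3.52, 3.39 and 3.83 at 1 h and 3.87, 4.50, 3.58, 4.06 and 3.64 in untreated cells. Its arrays at 3 h were above all of these 1 h and untreated arrays, replicate 4 most. The differences were 2.83 ± 0.30 from 1 h (adjusted p = 7.11e-08) and 2.44 ± 0.28 from untreated cells (adjusted p = 3.64e-07). At 5 h the mantle arrays stood at 5.58, 5.47, 5.54 and 3.78. Also higher at 3 h than at 1 h were the endocytic adaptor gene ston2 (2.77 ± 0.37), the class I major histocompatibility gene mhc1zba (2.67 ± 0.32), kiaa0232 (2.60 ± 0.41) and kitlgb, which encodes a ligand of the Kit receptor (2.56 ± 0.44).

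The last comparison tested whether the response at 3 h differed from that of non-fluorescent skin cells at the same time. It is the difference of 2 differences, mantle minus non-fluorescent, and is given with array medians equal, because its median across the 19260 genes was -0.12 as deposited and -0.02 so. It called 2434 genes (12.6%), 1130 higher (5.87%) and 1304 lower (6.77%), and 91 in the 4 fits (0.472%), 39 higher (0.202%) and 52 lower (0.27%). On the deposited values it was 2736 genes (14.2%), 912 higher (4.74%) and 1824 lower (9.47%), so that 33.3% of the calls were higher, against 46.4% with array medians equal. With array medians equal, ER chaperones were higher in 1 and lower in 8 of 52. Keratinocyte genes were higher in 12 and lower in 0 of 34. The median of this difference was -0.07 for the ER list and 1.74 for the keratinocyte list, against -0.02 for all genes. Levels of the ER list were lower at 3 h in non-fluorescent cells too, as given above. Glycosylation and secretory traffic genes were higher in 9 and lower in 7 of 68, with a median of 0.11. In non-fluorescent cells that list lay at 6.54 to 6.92 at 3 h and 6.99 to 7.23 untreated. The 2 responses share no array, but the non-fluorescent arrays at 3 h carry the same kind of earlier adjustment. Deviations of same-numbered arrays of the 2 populations at 3 h also correlated weakly (0.06 to 0.15), and the test took these arrays as independent.

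Group means on the deposited scale are given beside the differences for some of the named genes. The axin1 response differed by -1.77 ± 0.27 (adjusted p = 5.3e-05): mantle cells averaged 6.54 at 3 h and 7.79 untreated, non-fluorescent cells 7.48 at 3 h and 6.86 untreated. The alpl response differed by -2.51 ± 0.42 (adjusted p = 0.000159), the oafa response by -3.93 ± 0.57 (adjusted p = 2.45e-05) and that of stx5a by -2.06 ± 0.36 (adjusted p = 0.000216). For dnase2 it was 3.43 ± 0.51 (adjusted p = 3.38e-05) and for kitlgb 3.72 ± 0.57 (adjusted p = 5.26e-05), both higher in mantle cells at 3 h and not called in non-fluorescent cells (adjusted p = 0.188 and 0.0856 on the deposited values). For others the larger change of the means was in non-fluorescent cells. The neurogranin gene nrgna averaged 2.67 at 3 h and 2.70 untreated in mantle cells, and 7.5 at 3 h and 3.54 untreated in non-fluorescent cells (-3.88 ± 0.41, adjusted p = 1.17e-07). The chemokine gene cxcl12a averaged 4.46 at 3 h and 5.63 untreated in mantle cells, and 10.52 at 3 h and 8.52 untreated in non-fluorescent cells (-3.07 ± 0.52, adjusted p = 0.000185).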

How the data were processed

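The deposited values are log2 expression values of Affymetrix arrays that the authors made with RMA and handled in Partek 6.6, per the submitters' processing notes. No source states the log base, and 2 was taken from RMA and from the range of -1.29 to 15.05, with 0 values missing. Of 75212 probe sets, 20806 have 1 gene symbol, and each of the 1365 genes with several is represented by its brightest probe set. Signal over background is not given, and the number of arrays limits the precision. Samples were grouped by sorted population and time, and 42 mantle and non-fluorescent arrays were fitted together with limma 3.58.1 in R 4.3.3, one mean per group, eBayes with default settings, tested on simulated data. Benjamini-Hochberg adjustment ran over 19260 genes, with calls at an adjusted p below 0.05. Members of the adjustment term are replicates 1 to 3 at 3 h and 5 h in each population. Named are the 12 largest increases and decreases in the 4 fits without overlap, 6 each in the other comparisons, up to 4 called members of each of 37 lists, and a fixed set. Genes with placeholder symbols were counted but not named. The members, lists and rules were chosen with earlier results of these data known.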

Additional observations from a re-analysis of the deposited data

Results flagged for a closer look

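In 10 of 196 groups of 4 or 5 arrays examined, 1 array lay far from the others by Dixon's criterion, and chance alone gives about 1 in 20. Among untreated mantle arrays these were TSPAN1 in replicate 3 (4.37), cxcl12a in replicate 1 (5.28), klf2a in replicate 4 (5.17) and, in replicate 5, creld2 (7.15), ddrgk1 (6.57), serpinh1b (10.17) and eif4ebp3l (7.0). At 3 h they were fn1b in replicate 1 (10.76), wars1 in replicate 2 (6.01) and pcna in replicate 4 (8.44).

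The response at 3 h differed between mantle and non-fluorescent cells, by the test of the difference itself with array medians equal, in named genes on both sides. Higher in the mantle response were kiaa0232 (3.8), kitlgb (3.72), dnase2 (3.43), mhc1zba (3.32), ddrgk1 (3.31), bloc1s6 (2.93), ptges3b (2.90), selenoe (2.45) and ndufa6 (2.38). Lower in it were oafa (-3.93), nrgna (-3.88), TSPAN1 (-3.36), slc16a6a (-3.35), atmin (-3.18), cxcl12a (-3.07), alpl (-2.51), stx5a (-2.06) and axin1 (-1.77).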

How the results depend on the processing

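The number of calls depended on how the earlier adjustment was treated. Where the main counts were 2878 (3 h against untreated), 2645 (3 h against 1 h) and 2736 (difference of responses), the adjustment term left 360, 431 and 136, and with array medians equal as well 360, 373 and 91. Replicate 4 alone at 3 h gave 315, 515 and 237, and 326, 499 and 201 with array medians equal. At an adjusted p below 0.01 they were 1294, 1240 and 1111. Leaving out each array gave 2040 to 2575, 1991 to 2317 and 2133 to 2816. Deviations of same-numbered mantle arrays at 3 h and untreated correlated at 0.03, 0.01, 0.03 and 0.09, which shows little sign of pairing. Between mantle and non-fluorescent arrays at 3 h, same-numbered pairs correlated at 0.15, 0.06, 0.09 and 0.07. The differently numbered pairs there correlated at -0.13 to 0.04. Whether a shared number means a shared sort was not tested, and the main fit took these arrays as independent. The replicate block gave 2345, 2467 and 2566 calls. The other alternatives (medians equal, quantile normalization, only the groups compared, mantle arrays only, all 52 arrays, trend and robust eBayes, mean of probe sets, dim genes left out) stayed within 1.5 times of these counts.

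Of the values of named genes under all alternatives, 2065 kept their direction and side of the threshold, 158 lost and 12 gained a call, and 15 changed sign, all in genes with small differences. With replicate 4 alone sox2 was 0.08 (0.13 with array medians equal), stat3 -0.06 (-0.01), mmp9 -0.51 (-0.45), nrgna 0.01 (0.07) and hmox1a -0.02. Leaving out each array in turn gave mmp9 -0.94 (without 3 h replicate 1) to 0.62, with -0.12 and -0.19 without untreated replicates 1 and 2, and nrgna -0.10 to 0.03 (without untreated replicate 2). For nrgna the value was 0 with the adjustment term and medians equal and 0.06 with the replicate block. The cause was not tested. Leaving out 1 array lost the deposited-value call of wnt3 (3 h replicates 2 and 4, untreated 4 and 5), at 0.82 to 0.92, of atoh1a (3 h replicates 1 and 3, untreated 1 and 4), at 0.53 to 0.58, and of cxcl12a (3 h replicates 1, 2 and 4, untreated 2 to 5), at -1.20 to -1.02. It also lost the call at 3 h against untreated of gsg1l (3 h replicates 1 and 3), atmin (3 h replicates 1 and 4, untreated 5) and lepb (3 h replicate 3), which are named from the other comparisons, and no gene called in the 4 fits lost its call that way.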
